A study of Homo sapiens and Mus musculus with 33 samples.

Results

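Bulk SLAM-seq libraries of Jurkat cells given 1 µM ETO (3 libraries) were compared with 3 control libraries. They are 6 of the 33 samples of the series, and were chosen by their titles. Jurkat is a human T cell leukaemia line, used here as its clone E6-1, and ETO is read here as etoposide. All 6 libraries were labelled with 4-thiouridine (4sU), and the controls carry no drug in their titles. The other Jurkat libraries of this assay, 3 given 50 nM CPT, entered the fits to estimate the spread between libraries. They also took part in the filter on low counts and in the scaling of the libraries. The labelling time, the 4sU dose and the time on ETO are not given in the sources used here, nor is it stated that replicates are separate cultures, so the tests measure the spread between these libraries. A line that is 1 clone gives no view of other T cells.

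Etoposide traps type II topoisomerases on DNA after they have cut both strands, which leaves double-strand breaks covered by protein. Proliferating cells answer such breaks by stopping before mitosis, and cells with working p53 also switch on p53 target genes such as CDKN1A and MDM2. In SLAM-seq, 4sU enters RNA as it is made, iodoacetamide changes it chemically, and reverse transcription then reads C in place of T. Reads with such conversions therefore stand for RNA made during labelling (new RNA), and all reads for the RNA present at harvest (total RNA). Libraries were sequenced from the 3' end of polyadenylated RNA, so a gene gives reads in proportion to its RNA molecules whatever its length.

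The libraries held 24021586 to 39602287 reads off the mitochondrial genome, counting each group of overlapping 3' UTRs a single time. Converted reads were 2.08%, 2.00% and 1.98% of these in the control libraries and 2.21%, 2.22% and 2.21% in the ETO libraries. Conversions per T position covered were 0.191%, 0.185% and 0.184% in the control libraries and 0.221%, 0.220% and 0.218% in the ETO libraries. The groups did not overlap in either measure, and an ETO to control ratio of 1.17 for the conversion rate is tested at p = 0.1 (exact permutation test, two-sided), the smallest p that 3 against 3 allows. Converted reads also held more conversions each in the ETO libraries, 2.42 to 2.43 against 2.28 to 2.29. No Jurkat library without 4sU was at hand, so the share of converted reads that arises without labelling is unknown. T lineage markers summed to 2737 to 2866 CPM in the control and 2726 to 2759 CPM in the ETO libraries, where CPM is reads scaled to 1000000 per library. Markers of B cells (at most 5.38 CPM summed), myeloid cells (at most 15.9), red cells and platelets (at most 1.86) and fibroblasts (at most 0.225) were low beside these. CD3 genes and LCK were present. CD2 was low, at 14.7, 16.1 and 15.2 CPM in the control and 9.59, 5.83 and 6.6 in the ETO libraries. Of 13 T lineage markers tested in total RNA 2 were higher and 5 lower with ETO, beside 18.4% and 19.4% of all features tested. Epithelial markers summed to 14.9 to 20.1 CPM with EPCAM and KRT19 at 0.

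**Figure D1:**
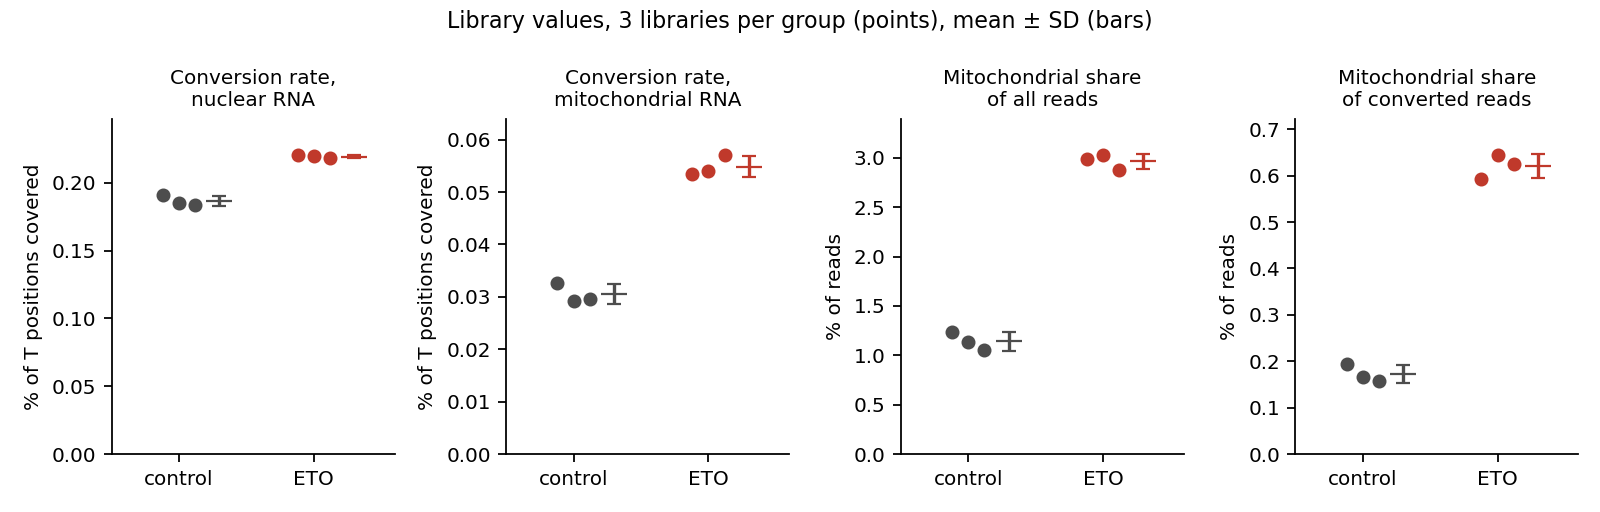
Conversion rate (% of T positions covered) off and on the mitochondrial genome and the mitochondrial share of all and of converted reads (% of reads), with 1 point per library and mean ± SD beside them. In all 4 panels the 3 ETO libraries lie above the 3 control libraries, and the mitochondrial share of reads rises from 1.05% to 1.24% to 2.88% to 3.03%.

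In new RNA 113 genes or unnamed 3' UTR groups were higher and 64 lower with ETO among 9084 tested (adjusted p under 0.05, edgeR's quasi-likelihood test), which is 1.24% and 0.705%. In total RNA 2754 were higher and 2912 lower among 14989, or 18.4% and 19.4%. Of the 9084 tested in both measures, 4286 were called in total RNA. The counts for gene lists below stand beside these shares, and no list was tested against them. Fold changes were mostly small: the median absolute log2 fold change of the genes called in total RNA was 0.45, and 779 of the 5666 changed by 1 or more on the log2 scale. Fits without any 1 of the 6 libraries gave 90 to 116 calls in new RNA, of which 89 to 112 were among the 177, and 4504 to 4863 calls in total RNA. DESeq2 gave 492 calls in new RNA, and edgeR on the 6 libraries without the CPT libraries gave 889. When converted reads were scaled by all reads of the library, new RNA gave 185 higher and 48 lower, and the median log2 change over all genes went from 0.013 to 0.121. Without TMM scaling, total RNA gave 3546 higher and 2202 lower.

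Of the 177 genes called in new RNA, 151 were also called in total RNA, 142 in the same direction and 9 in the opposite one. The 9 were all higher in new and lower in total RNA: ENO1, ZC3HAV1, SEPTIN6, the snoRNA locus SNORA50C and 5 hosts of small nucleolar RNAs (DANCR, SNHG3, SNHG4, SNHG8 and SNHG29). These genes were chosen after their values were seen, and SNHG3, SNHG8 and SNORA50C kept both calls in every alternative run. New and total RNA come from the same libraries, and converted reads are a small part of all reads.

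**Figure D2:**
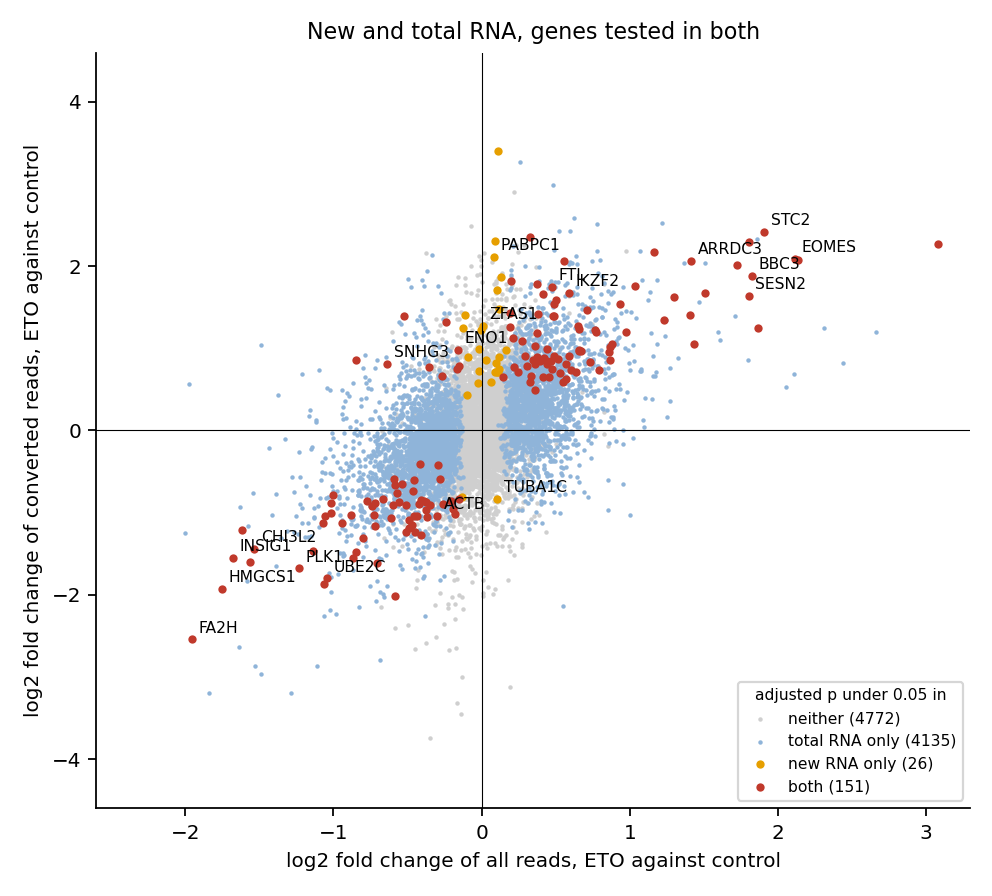
Log2 fold change of converted reads against that of all reads, 1 point per gene tested in both, with ETO above control at positive values; colours show in which measure the adjusted p was under 0.05, and 9 points lie outside the axes. Sterol and mitotic genes such as HMGCS1 and UBE2C lie at the lower left, STC2, EOMES and SESN2 at the upper right, and SNHG3 and ENO1 at the upper left.

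Genes of G2 and mitosis were lower with ETO. Of the 51 on the list, 39 were lower and 3 higher in total RNA, and 10 were lower and 0 higher in new RNA. Their median log2 fold change was -0.46 in total and -0.55 in new RNA, beside 0.01 for all genes in both measures. UBE2C, at chr20:45812644-45816952 (RefSeq gene span, GRCh38.p14), feeds the anaphase-promoting complex with ubiquitin. It had 675, 655 and 589 converted CPM in the control libraries and 188, 166 and 196 in the ETO libraries. Every ETO library lay far below every control. Its log2 change was -1.80 ± 0.17 (SE) in new RNA (adjusted p 3.4e-07) and -1.05 ± 0.07 in total RNA, where the values were 164, 157 and 144 against 77.8, 75.9 and 71.1 CPM.

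PLK1, the kinase that starts many steps of mitosis, fell from 435, 426 and 427 to 132, 158 and 109 converted CPM, a log2 change of -1.68 ± 0.22. AURKA, the kinase of spindle poles, had 464, 505 and 439 against 186, 172 and 123 converted CPM, a log2 change of -1.55 ± 0.20. TOP2A, the type II topoisomerase of dividing cells and a target of etoposide, had 688, 752 and 859 against 339, 382 and 378 converted CPM and 298, 306 and 329 against 203, 208 and 199 CPM of all reads. The groups were apart for all 3 genes in both measures, and TOP2A fell by 1.06 in new and by 0.61 in total RNA on the log2 scale. PTTG1, the securin that holds sister chromatids until anaphase, had 255, 271 and 281 against 144, 134 and 148 CPM of all reads, a log2 change of -0.92 ± 0.06. The 3 list members that were higher in total RNA, AURKB (0.26), TPX2 (0.14) and FOXM1 (0.47), were named after their values were seen, and TPX2 lost its call in 8 of 11 alternatives. The count of 10 in new RNA was 5 or 6 when any 1 library was left out, and 22 when the 6 libraries were fitted without the CPT libraries.

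Many mitotic genes share a promoter element, the cell cycle genes homology region (CHR), which binds the DREAM and MuvB complexes that hold such genes down outside G2. Its core TTTGAA was searched on both strands from 250 bases before to 50 after each gene's RefSeq start (GRCh38.p14). It stood in 29 of 44 promoters of list members (65.9%), in 9.74% of the promoters of all genes tested in total RNA and in 15.4% of all 27305 promoters. The variant TTTAAA stood in 36.4%, 7.46% and 12.3%, and the CCAAT box of NF-Y in 81.8%, 36.3% and 35.7%. Among the other lists the share with a CCAAT box ranged from 11.1% (hosts of small nucleolar RNAs) to 84.6% (histones). The windows below come from promoters of genes that fell in total RNA, lie upstream of the annotated start apart from the bases that pass it, and show the core in capitals, 5' to 3' on the gene's strand.
PLK1: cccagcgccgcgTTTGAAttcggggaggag
CCNB2: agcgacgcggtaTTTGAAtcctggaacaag
CDC20: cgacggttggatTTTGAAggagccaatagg
CENPA: cggagcgagcgaTTTGAAcgcgagcggcgc
CCNB1: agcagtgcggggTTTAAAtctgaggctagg
KIF20A: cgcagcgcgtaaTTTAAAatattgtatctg
The PLK1 window is at chr16:23678848-23678877 (plus strand), CCNB2 at chr15:59105105-59105134 (plus strand) and CDC20 at chr1:43358904-43358933 (plus strand). That of CENPA is at chr2:26786026-26786055 (plus strand), CCNB1 at chr5:69167108-69167137 (plus strand) and KIF20A at chr5:138179059-138179088 (plus strand). Counted from the annotated start, the cores began at -29 (PLK1), -29 (CCNB2), -65 (CDC20), -18 (CENPA), -30 (CCNB1) and -41 (KIF20A). In total RNA these genes changed by -1.23 (PLK1), -0.72 (CCNB2), -0.80 (CDC20), -0.73 (CENPA), -0.85 (CCNB1) and -0.59 (KIF20A) on the log2 scale. A match is a description of the sequence and was not tested as a site.

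Genes of G1/S and DNA replication moved the other way. Of 38 tested, 22 were higher and 1 (MCM6) lower in total RNA, with a median log2 change of 0.22, and 5 were higher and 0 lower in new RNA (1 to 3 when any 1 library was left out). RRM2, a subunit of the enzyme that makes deoxyribonucleotides, had 758, 803 and 782 converted CPM in the control libraries and 1348, 1315 and 1226 in the ETO libraries. Every ETO library was above every control, with log2 changes of 0.73 ± 0.11 in new and 0.79 ± 0.05 in total RNA. MCM7, part of the replicative helicase, had 377, 344 and 339 against 576, 540.1 and 533 CPM of all reads (log2 0.64 ± 0.05). POLA1, the catalytic subunit of the primase-polymerase, went from 22.9, 22.2 and 20.7 to 40, 38.8 and 43.2 CPM of all reads (log2 0.89 ± 0.09). DTL, an adaptor that marks replication factors for degradation, rose by 0.65. In bulk RNA more cells in a phase and more RNA per cell cannot be told apart.

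Cholesterol synthesis was the list with the lowest median. Of 19 members tested in total RNA 15 were lower and 0 higher (median log2 -0.77), and of 17 in new RNA 6 were lower and 0 higher (median -1.08). HMGCS1, at chr5:43287470-43313412, makes the HMG-CoA that enters the pathway. It had 758, 669.8 and 647 converted CPM in the control libraries and 175, 165 and 205 in the ETO libraries. All ETO libraries lay below every control, and the log2 change was -1.93 ± 0.20 in new RNA (adjusted p 9.9e-07) and -1.75 ± 0.07 in total RNA, where values were 331, 303 and 290.4 against 89.1, 89.7 and 95.9 CPM. MSMO1, a sterol demethylase, had 754, 709 and 649.6 against 288, 220.1 and 193 converted CPM (log2 -1.60 ± 0.19) and 135, 135 and 133 against 46.6, 45.4 and 44.6 CPM of all reads. The share of HMGCS1 reads that were converted overlapped between groups, at 5.03, 4.76 and 4.74% against 4.35, 4.08 and 4.76%.

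Targets and regulators of the sterol-sensing factor SREBP outside the pathway itself fell as well: 15 of 18 were lower in total RNA and 1 (LPIN1, a call lost in 4 of 11 alternatives) higher, with 3 of 16 lower in new RNA. INSIG1, which retains SREBP in the endoplasmic reticulum when sterols are plentiful, had 1104, 981 and 1061 converted CPM in the control libraries and 299, 402 and 369 in the ETO libraries, a log2 change of -1.55 ± 0.16. SCD, the desaturase that makes oleate, went from 1219, 1182 and 1135 to 553, 707 and 654 converted CPM. ABCG1, a sterol exporter that is switched on by sterols through LXR and not by SREBP, also fell, from 92.6, 90.6 and 85.1 to 26.7, 28.7 and 31.3 CPM of all reads (log2 -1.63 ± 0.08). FADS2, a fatty acid desaturase, had 214, 279 and 255 against 83.5, 86.2 and 80.6 CPM of all reads (log2 -1.58 ± 0.08). Control and ETO libraries did not overlap for any of these in the measure given.

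SREBP binds sterol regulatory elements, whose core was searched as CACNCCA on both strands. It stood in 6 of 15 promoters of the synthesis list (40%), 5 of 15 of the SREBP list (33.3%), 16.3% of those of all genes tested and 17.4% of all promoters. Among the other lists its share ranged from 0% (histones) to 40% (T cell receptor list), so it does not set the sterol lists apart. CCAAT boxes, bound by the partner factor NF-Y, stood in 12 of 15 promoters of the synthesis list (80%), beside 36.3% of those of all genes tested. The SREBP list, which also fell, had them in 40%. Lists that rose had them too, with 76% for the unfolded protein and stress response and 64.7% for G1/S. These 3 windows are shown because their genes fell in both new and total RNA, with the core or its reverse complement in capitals.
MSMO1: ctcactatcctCACTCCAtccgcggagcca
INSIG1: cgggccggcggTGGCGTGtgcgcacgtcat
SCD: cagaggccgggTGGTGTGgtgtcggtgtcg
They lie at chr4:165327503-165327532 (plus strand) for MSMO1, chr7:155297660-155297689 (plus strand) for INSIG1 and chr10:100347109-100347138 (plus strand) for SCD, upstream of the annotated starts, with cores beginning at -155, -207 and -113. The core is short and open at 1 base, and a match was not tested as a site.

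**Figure D3:**
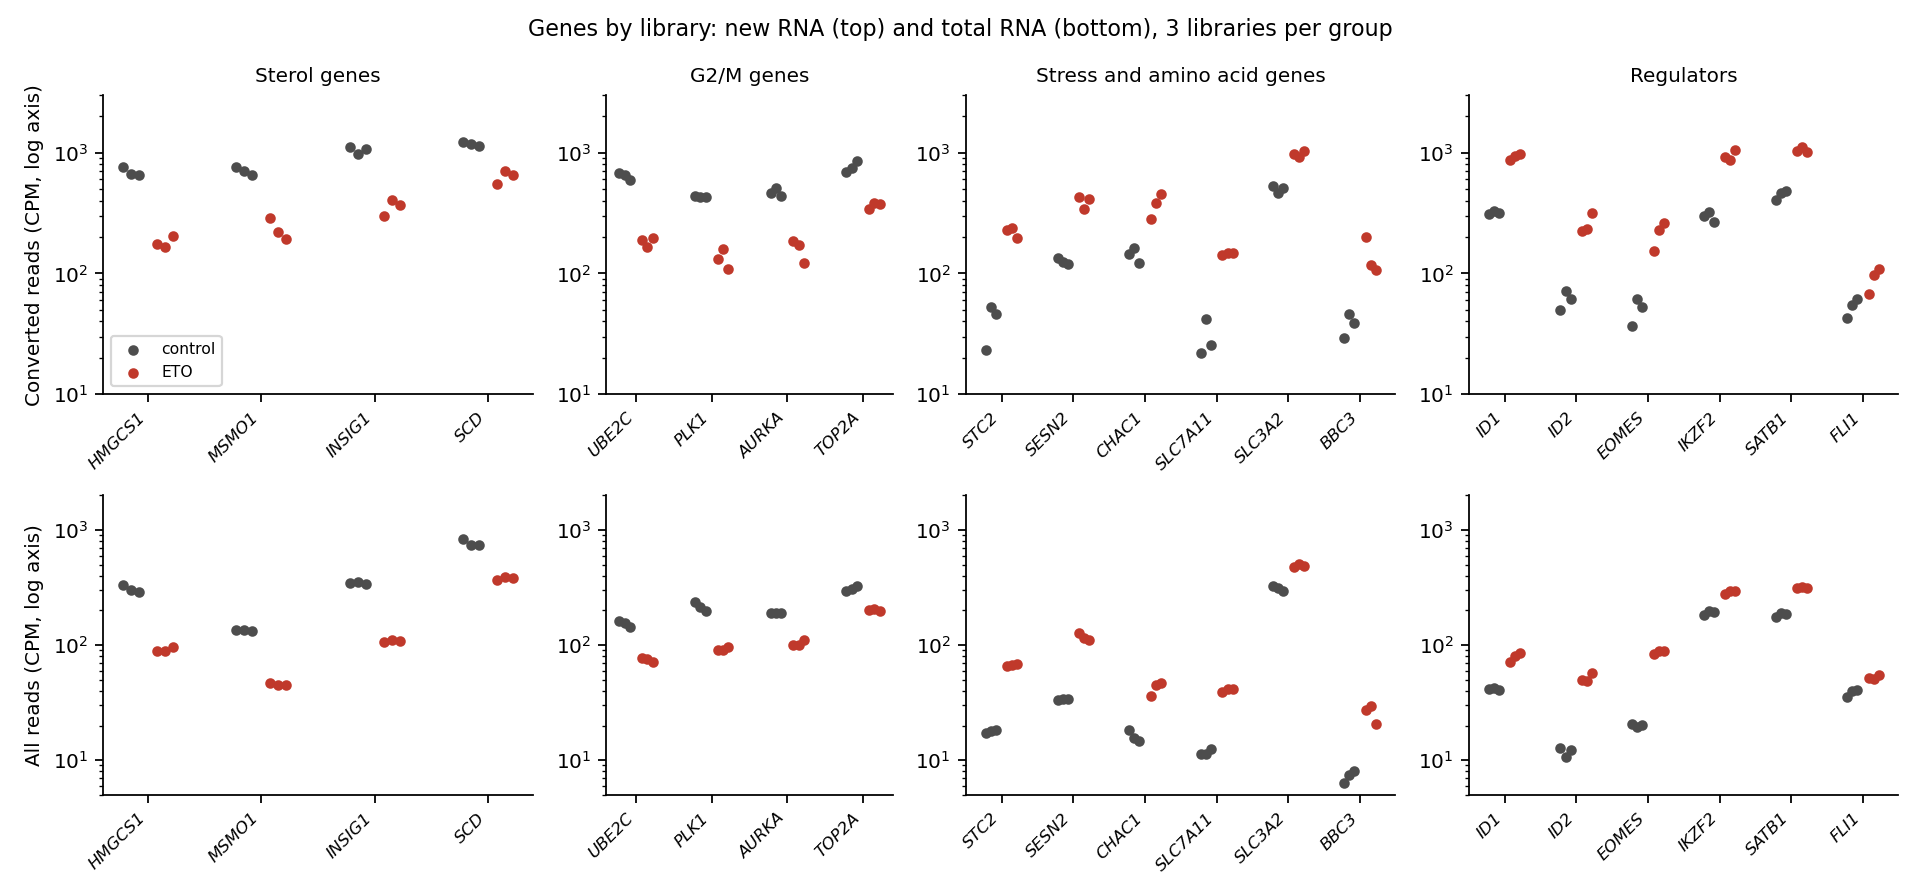
Converted reads (top row) and all reads (bottom row) per gene and library in CPM on log axes, 3 control and 3 ETO points per gene. Sterol and G2/M genes are lower in every ETO library in both rows, stress, amino acid and regulator genes are higher, and for FLI1 the groups are apart by a small step.

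Stress genes of the unfolded protein response and the integrated stress response were higher. Of 28 tested in total RNA 17 were higher and 3 (ATF4, DDIT4 and PDIA4) lower, and of 27 in new RNA 6 were higher and 0 lower (median log2 0.64). STC2, at chr5:173314723-173328414, is a secreted glycoprotein of stressed cells. It had 23.4, 53.1 and 46.3 converted CPM in the control libraries and 228, 237 and 196 in the ETO libraries. The lowest ETO library was over 3 times the highest control, and the log2 change was 2.42 ± 0.30 in new RNA (adjusted p 1.2e-05) and 1.91 ± 0.09 in total RNA. SESN2, a stress protein that restrains mTORC1, had 135, 123 and 119.6 against 425, 339 and 417 converted CPM (log2 1.64 ± 0.18), although 99.7% of its reads were counted as multimapped. Values of genes with many multimapped reads are uncertain, since such reads match several places in the genome. CHAC1, which breaks down glutathione, had 143, 162 and 122 against 284, 385 and 457 converted CPM (log2 1.40 ± 0.21). DDIT3, the transcription factor CHOP, had 8.32, 9.63 and 10 against 37.6, 30.9 and 33.8 CPM of all reads (log2 1.87 ± 0.10), and TRIB3, a pseudokinase induced by it, 31.7, 37.5 and 31.1 against 102, 100.3 and 100 (log2 1.59 ± 0.07). CALR, a chaperone of the endoplasmic reticulum, rose by 0.83 ± 0.15 in new RNA. ATF4 itself, whose protein is mainly controlled by translation, changed by -0.42 in total RNA.

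Amino acid carriers and tRNA synthetases, many of them ATF4 targets, showed 13 higher and 3 lower of 23 in total RNA and 6 higher and 0 lower of 21 in new RNA (3 to 5 when any 1 library was left out). SLC7A11, the cystine carrier, had 22, 41.6 and 25.7 converted CPM in the control libraries and 143, 147 and 148 in the ETO libraries (log2 2.29 ± 0.36). Its partner chain SLC3A2 had 524, 460.4 and 508 against 967, 925 and 1024 converted CPM (log2 0.97 ± 0.13), and SLC38A2, a carrier of small neutral amino acids, 422, 407 and 422 against 838, 755 and 763 (log2 0.91 ± 0.13). All 3 stood apart from the controls in both measures. The 3 synthetase genes that were lower, IARS1 (-0.27), LARS1 (-0.29) and EPRS1 (-0.29), were named after their values were seen, and LARS1 lost its call in 3 of 11 alternatives.

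ATF4 and CHOP bind composite elements (CARE), whose core was searched as TGATGNA on both strands. It stood in 9 of 20 promoters of the amino acid list (45%) and 5 of 25 of the stress list (20%), against 5.12% of the promoters of all genes tested and 10.2% of all promoters. The windows of 3 genes that rose are shown with the core, here on the opposite strand, in capitals.
CHAC1: tcccctgccgtTGCATCActcctgccaggt
AARS1: tttctcgcagtTGCATCAgccaagttagag
SLC3A2: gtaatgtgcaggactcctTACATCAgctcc
They lie at chr15:40953252-40953281 (plus strand), chr16:70289674-70289703 (minus strand) and chr11:62881719-62881748 (plus strand). The first and the second are upstream of the annotated start (cores from -208 and -186), and that of SLC3A2 is downstream of it (from 38). AARS1, the alanine synthetase, changed by 0.98 in new and 0.66 in total RNA on the log2 scale. Its call in new RNA was lost without the second or the third control library (adjusted p 0.067 and 0.066).

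The p53 target list was mixed. In total RNA 11 of 26 were higher and 4 lower, and in new RNA 3 of 24 were higher and 0 lower. The shares over all features were 18.4% and 19.4% in total RNA and 1.24% and 0.705% in new RNA. CDKN1A, the main p53-driven inhibitor of cyclin-dependent kinases, had 7.17, 7.5 and 7.85 CPM of all reads in the control libraries and 8.67, 7.39 and 9.83 in the ETO libraries, and the groups overlapped in new RNA (20.5, 25.8 and 18 against 5.65, 23.9 and 24 converted CPM). Its log2 change was 0.20 ± 0.12 in total RNA with adjusted p 0.23. MDM2, which marks p53 for degradation, had 129.8, 132 and 133 against 123, 126 and 134 CPM of all reads, a log2 change of -0.04 ± 0.06 with adjusted p 0.58. BBC3, the cell death inducer PUMA, had 29.3, 45.9 and 38.6 converted CPM in the control libraries and 201, 117 and 106 in the ETO libraries (log2 1.88 ± 0.31). It is also a known target of CHOP, and SESN2 stands on both the p53 and the stress list. Which factor these rises depend on was not tested. DDB2, a sensor of DNA lesions, had 28.7, 32.2 and 31.5 against 54.8, 48.7 and 52.1 CPM of all reads (log2 0.75 ± 0.08), and CCNG1, a p53-driven cyclin, 59.4, 56.6 and 63.7 against 33.7, 37.5 and 33.4 (log2 -0.78 ± 0.08).

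DNA damage and repair genes showed 15 higher and 4 lower of 40 in total RNA. In new RNA 0 of 37 passed edgeR's test, with 6 at an unadjusted p under 0.05. DESeq2 called 3 higher and 1 lower of 40. BRCA1, which steers breaks to homologous recombination, had 74.8, 74.3 and 72.3 against 121, 129 and 121 CPM of all reads (log2 0.75 ± 0.06), and the exonuclease EXO1 32, 32.4 and 32.6 against 64.1, 52.2 and 55.7 (log2 0.82 ± 0.08). WEE1, the kinase that keeps CDK1 off before mitosis, was lower at 80.8, 80.7 and 78 against 52.7, 56.3 and 51.2 (log2 -0.58 ± 0.07). Among topoisomerases and the enzymes that remove them from DNA, 2 of 10 were higher and 4 lower in total RNA, and only TOP2A passed in new RNA of the 9 tested. TOP2B, the second type II enzyme, had 311, 319 and 298 against 257, 256 and 267 CPM of all reads (log2 -0.25 ± 0.05), while TOP1, the type I enzyme, had 282, 295 and 299 against 310.1, 311 and 342 with adjusted p 0.074 and 62.1% of its reads multimapped. Apoptosis regulators gave 10 higher and 5 lower of 31 in total RNA (6 to 9 and 2 to 5 when any 1 library was left out) and 3 higher of 25 in new RNA. Over all features tested 18.4% were higher and 19.4% lower in total RNA, and 1.24% and 0.705% in new RNA. The lists of this paragraph were not tested against these shares. BCL2L1, an inhibitor of cell death, was lower at 76.5, 75.5 and 79 against 48.2, 41.5 and 42.3 CPM of all reads (log2 -0.81 ± 0.08).

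Regulators of the T lineage were among the clearest rises in new RNA, with 7 of 25 higher and 0 lower, the same 7 and 0 in count when any 1 library was left out. In total RNA 13 of 27 were higher and 4 lower. ID2, at chr2:8682056-8684461, is an inhibitor of E proteins. It had 49.8, 71.7 and 61.7 converted CPM in the control libraries and 224, 231 and 316 in the ETO libraries (log2 2.07 ± 0.22, adjusted p 9.9e-07). Its relative ID1 had 310.4, 327 and 318 against 866, 938 and 965 converted CPM (log2 1.54 ± 0.12), and ID3 1408, 1426 and 1454 against 2411, 2142 and 2199 (log2 0.65 ± 0.08). EOMES, a T-box factor of memory and killer cells, had 36.6, 61.7 and 52.7 against 154, 228 and 261 converted CPM and 20.6, 19.5 and 20.2 against 83.6, 89.6 and 88.5 CPM of all reads, a log2 change of 2.12 ± 0.06. IKZF2, the zinc finger factor Helios, had 297, 323 and 269 against 913, 871 and 1052 converted CPM (log2 1.67 ± 0.15), and SATB1, a chromatin organiser of thymocytes, 404, 466 and 477 against 1024, 1113 and 1010.4 (log2 1.22 ± 0.16). For each of these 6 genes every ETO library was above every control, which the rule for the largest changes requires of ID2 and EOMES. ID3 reads were 99.3% multimapped and those of ID2 37.8%. LEF1, a factor of early T cells, was lower in total RNA at 666, 689.5 and 695 against 487, 497 and 490.1 CPM (log2 -0.48 ± 0.05).

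Genes of quiescent and naive T cells gave 10 higher and 4 lower of 22 in total RNA and 3 higher of 18 in new RNA. For this list and the next, all features tested gave 18.4% higher and 19.4% lower in total RNA. In new RNA they gave 1.24% and 0.705%. TXNIP, an inhibitor of glucose uptake, had 1169.7, 1048 and 1074 against 1965, 1729 and 1785 converted CPM (log2 0.73 ± 0.09), and BTG1, an antiproliferative factor, 39.4, 48.3 and 46.7 against 104, 97.7 and 82.3 CPM of all reads (log2 1.08 ± 0.09). The T cell receptor and its proximal signalling chain went the other way in total RNA, with 4 higher and 13 lower of 22, and 2 of 17 were higher in new RNA. SIT1, an adaptor that dampens receptor signals, had 149, 173 and 169 against 87.6, 84.3 and 89.4 CPM of all reads (log2 -0.91 ± 0.07), and GRAP2, an adaptor downstream of the receptor, 180.4, 203 and 189 against 154, 137 and 135 (log2 -0.43 ± 0.07). PTPRC, the phosphatase CD45, had 79.1, 118 and 79.8 against 235, 214 and 294 converted CPM (log2 1.43 ± 0.26), with all ETO libraries above the controls.

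FLI1, an ETS transcription factor named in the title of the series (chr11:128685132-128813267), was higher in total RNA, with 35.1, 40 and 41.1 CPM of all reads in the control libraries and 51.7, 51 and 55 in the ETO libraries. Every ETO library was above every control, and the log2 change was 0.44 ± 0.08 (adjusted p 3.0e-04). In new RNA FLI1 had 42.5, 54.5 and 61.7 against 67.8, 96.9 and 109 converted CPM, and its log2 change of 0.79 ± 0.43 did not pass (adjusted p 0.5). Among 17 ETS factors in total RNA 5 were higher and 8 lower. ETS1 had 325, 323 and 328 against 446, 434 and 416 CPM of all reads (log2 0.41 ± 0.05), while ETV5 had 32.3, 30.9 and 27.3 against 10.2, 7.04 and 8.3 (log2 -1.84 ± 0.13). In new RNA 0 of 14 passed edgeR's test, with 3 at an unadjusted p under 0.05, and DESeq2 called 2 higher of 16. Genes linked to FLI1 in blood cells gave 6 higher and 3 lower of 20 in total RNA and 3 higher and 2 lower of 15 in new RNA, a list that shares ID2, PTPRC, EGR1 and CCNB1 with other lists here. Over all features the shares were 18.4% and 19.4% in total RNA and 1.24% and 0.705% in new RNA. Neither the ETS list nor this one was tested against them.

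Immediate early genes, which respond to signals within minutes, gave 5 higher and 11 lower of 29 in total RNA (7 to 11 lower when any 1 library was left out, and 7 higher and 8 lower without TMM scaling). Among all features tested 18.4% were higher and 19.4% lower, so the count of higher genes is near that share. EGR1 was lower in both measures, although the call in new RNA was lost without the second or the third control library (adjusted p 0.052 and 0.058). It stood at 43.6, 44.1 and 42.2 against 23.5, 22 and 19.2 CPM of all reads (log2 -1.01 ± 0.09). IER3 had 111, 146 and 145 against 74.6, 75.8 and 70.2 CPM of all reads (log2 -0.87 ± 0.08), with 100% of its reads multimapped. JUN was higher in total RNA, at 54, 59.6 and 59 against 84, 92.3 and 79.4 (log2 0.57 ± 0.07), while its new RNA overlapped between groups (492, 536 and 489 against 476, 540.5 and 457 converted CPM). ZFP36L1, which destabilises RNAs with AU-rich elements, had 584, 554 and 463 against 832, 977 and 783 converted CPM (log2 0.70 ± 0.13).

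The ratio of converted to other reads within a gene was tested apart from its level. It was higher for 52 and lower for 10 of 9084 genes (0.572% and 0.11%), and for 20 to 24 in all when any 1 library was left out. The calls that held when any 1 library was left out included hosts of small nucleolar RNAs, ENO1, FTL, IKZF2, RPL3, ACTB and TUBA1C. SNHG3, at chr1:28505943-28510892, carries small nucleolar RNAs in its introns. It had 12.1, 10.2 and 9.75% against 28.6, 30.5 and 30.4% of its reads converted, a log2 change of the ratio of 1.76 ± 0.14 (adjusted p 4.0e-06). Its converted reads rose (1287, 1155 and 1110.1 against 1939, 2201 and 2093 CPM) while its total reads fell (234, 243 and 242 against 150.0, 159.5 and 153 CPM). ZFAS1, another host, had 1.38, 1.28 and 1.56% against 3.38, 3.28 and 3.73% converted (log2 1.25 ± 0.14), with new RNA at 369, 338 and 405 against 821, 843 and 1022 converted CPM. Its total RNA overlapped between groups, at 587, 567 and 552 against 537, 568 and 609 CPM. Of the 8 hosts tested, 6 were higher in new RNA and 5 in the ratio (5 and 4 when any 1 library was left out), and in total RNA 2 of 9 were higher and 5 lower.

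**Figure D4:**
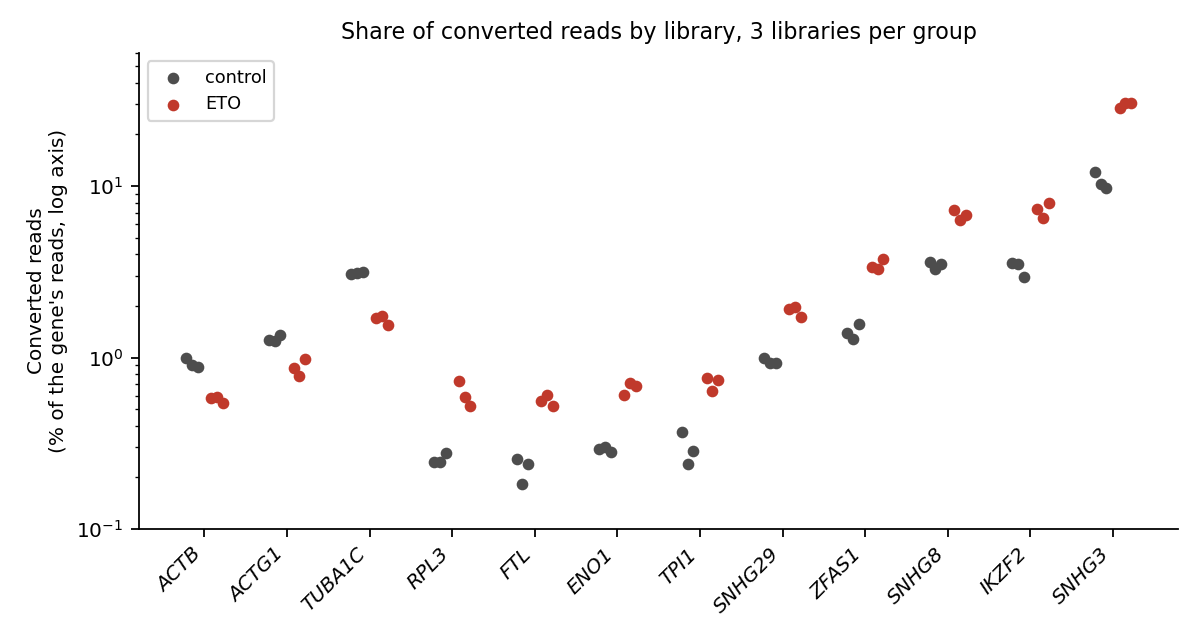
Share of converted reads (% of the gene's reads, log axis) in 3 control and 3 ETO libraries for 12 genes, ordered by kind. ACTB, ACTG1 and TUBA1C are lower in every ETO library, and the other 9 are higher.

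Genes of cytosolic ribosomal proteins were lower in total RNA, 56 of 78 with 6 higher (median log2 -0.27), while in new RNA 3 were higher and 0 lower (median 0.34) and in the ratio 9 were higher and 0 lower (median 0.52). In the control libraries 0.289% ± 0.0067 (SD, n = 3) of the reads of a median ribosomal protein gene were converted, and in the ETO libraries 0.447% ± 0.010, beside 2.52% ± 0.038 and 2.60% ± 0.015 for all genes with at least 100 reads in each library. RPL3 had 0.247, 0.245 and 0.279% against 0.73, 0.587 and 0.52% converted (log2 of the ratio 1.17 ± 0.15), but 97.5% of its reads were multimapped. RPL5 had 2174, 2210.1 and 2276 against 1471, 1430.4 and 1449.7 CPM of all reads (log2 -0.61 ± 0.04) and overlapping new RNA. The count of 9 in the ratio was 1 to 5 when any 1 library was left out, and 39 when the CPT libraries were left out of the fit. The conversion rate over all genes was also higher in the ETO libraries (ratio 1.17), and its part in this difference was not tested.

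Most ribosomal protein RNAs begin with a C and a run of pyrimidines, the terminal oligopyrimidine motif through which mTOR controls their translation. A C at the RefSeq start followed by at least 4 C or T stood in 42 of 62 of these genes (67.7%), in 3 of 9 hosts of small nucleolar RNAs (33.3%), in 0 of 21 glycolysis genes and in 5.45% of all genes tested. This search was added after the results were seen. In the 30-base windows shown, the pyrimidine run from the annotated start is in capitals, with 15 bases before it; ENO1 is given for contrast and has none.
RPS24: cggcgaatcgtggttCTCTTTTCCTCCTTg
RPL31: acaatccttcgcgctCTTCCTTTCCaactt
RPLP1: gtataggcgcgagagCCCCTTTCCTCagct
ZFAS1: aggaagccattcgttCTTTCgcgtctgcgg
SNHG32: ctcgccattttagttCTTTTTgcgaagtgg
ENO1: gcgggcggcgcggacagtatctgtgggtac
The windows are at chr10:78033848-78033877 (plus strand) for RPS24, chr2:101002274-101002303 (plus strand) for RPL31 and chr15:69452803-69452832 (plus strand) for RPLP1. ZFAS1 is at chr20:49278627-49278656 (plus strand), SNHG32 at chr6:31834901-31834930 (plus strand) and ENO1 at chr1:8878672-8878701 (minus strand). In total RNA, 29 of 42 ribosomal protein genes with such a start were lower (median log2 -0.26) and 17 of 20 without it (median -0.34). Other genes with such a start gave 104 higher and 134 lower of 557 (18.7% and 24.1%), beside 19.1% and 20.5% of the other genes without it.

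Glycolysis genes were lower in total RNA (15 of 23, with 2 higher, median log2 -0.24), and 2 of 19 were higher in new RNA and 4 of 19 in the ratio (1 or 2 in the ratio when any 1 library was left out). ENO1, enolase, had 0.293, 0.302 and 0.282% against 0.608, 0.706 and 0.679% of its reads converted (log2 1.11 ± 0.13), with 464, 524 and 476 against 888, 1038 and 968 converted CPM. PGK1, phosphoglycerate kinase, had 942, 923 and 905 against 518, 495 and 511 CPM of all reads (log2 -0.86 ± 0.05) and overlapping converted reads (152, 168 and 216 against 213, 168 and 145 CPM). ALDOC, an aldolase, showed the largest fall in total RNA among genes with at least 20 CPM in the higher group and no overlap between groups, 157, 125 and 130.4 CPM of all reads in the control libraries and 41.3, 34.9 and 29.1 in the ETO libraries (log2 -1.97 ± 0.11). SLC16A3, the lactate exporter, had 25.4, 27.8 and 23.1 against 9.38, 8.07 and 7.03 CPM of all reads (log2 -1.64 ± 0.13). PDK1, the kinase that keeps pyruvate out of mitochondria, had 127, 117 and 114 against 41.9, 42.5 and 43.1 (log2 -1.49 ± 0.07).

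Among the genes whose ratio was lower were ACTB, ACTG1 and TUBA1C, which were picked from the ratio results and belong to no list here. ACTB, beta actin (47% of its reads multimapped), had 0.997, 0.906 and 0.879% against 0.578, 0.586 and 0.544% of its reads converted (log2 -0.78 ± 0.10), with 1869, 1860.3 and 1762 against 909, 925 and 834 converted CPM and 4116, 4418 and 4262 against 3483, 3493 and 3405 CPM of all reads. ACTG1, gamma actin, had 2822, 2814 and 2894 against 1436, 1341 and 1571 converted CPM (log2 -0.97 ± 0.09 in new and -0.37 ± 0.04 in total RNA), and its ratio call was lost without the third control or the second ETO library (adjusted p 0.054 and 0.052). TUBA1C, an alpha tubulin, had 3.05, 3.1 and 3.16% against 1.7, 1.74 and 1.55% converted (log2 -1.0 ± 0.14) while its total RNA overlapped between groups (809, 749 and 724 against 784, 805 and 868 CPM). FTL, the ferritin light chain and an NRF2 target, went from 87.8, 67.4 and 88.8 to 286, 295 and 241 converted CPM (log2 1.75 ± 0.21). NRF2 targets gave 6 higher and 2 lower of 15 in total RNA and 2 higher of 13 in new RNA, 1 of them SLC7A11. All features tested gave 18.4% higher and 19.4% lower in total RNA, and 1.24% and 0.705% in new RNA.

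Mitochondrial RNA took a larger share of the reads with ETO. The mitochondrial genome held 1.24%, 1.13% and 1.05% of reads in the control libraries and 2.98%, 3.03% and 2.88% in the ETO libraries, a ratio of 2.60 (exact permutation p = 0.1, two-sided). Its share of converted reads was 0.173% ± 0.019 (SD, n = 3) in the control and 0.621% ± 0.026 in the ETO libraries. The conversion rate on mitochondrial RNA was 0.0326%, 0.0293% and 0.0296% in the control and 0.0535%, 0.0540% and 0.0571% in the ETO libraries, a ratio of 1.80 (exact permutation p = 0.1, two-sided). It stayed below the rate off the mitochondrial genome in every library, and the rate off it was higher with ETO too, by 1.17.

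All 16 mitochondrial lines analysed were lines of the 2 ribosomal RNAs and 14 tRNAs, so the share and rate above cover these alone, and the ribosomal RNAs held 90.3% of mitochondrial reads. RNR2 (chrM:1671-3229), the large ribosomal RNA, had 8130.2, 7090.4 and 6435 reads per 1000000 in the control and 19259, 19928 and 19233 in the ETO libraries. RNR1 (chrM:648-1601), the small one, had 3089, 2912 and 2713 against 7805, 7755 and 6948. Neither overlapped between groups, and the ratios were 2.70 and 2.58. Of the 14 tRNA genes 11 were higher without overlap and 0 lower, with ratios from 0.746 (TRND) to 3.59 (TRNG). The share of all features without overlap is not given here, so this count has no background to be read against. Reads on a tRNA line can come from the precursor that also holds its neighbours, and in polyadenylated RNA a change in tail or in amount cannot be told apart. Protein-coding mitochondrial RNAs were not analysed here.

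Nuclear genes of the mitochondrion did not move with it in 1 direction. Of 52 nuclear-encoded respiratory chain genes 27 were lower and 5 higher in total RNA (median log2 -0.16), as ATP5MC2, a subunit of the rotor ring of ATP synthase, with 776, 751 and 722 against 468, 470.4 and 504 CPM of all reads (log2 -0.64 ± 0.05). NDUFS3, a subunit of complex I, was higher at 172, 169 and 177 against 246, 239.8 and 240.2 (log2 0.49 ± 0.05), with 99.8% of its reads multimapped. Without TMM scaling the split was 20 lower and 10 higher. In new RNA 0 of 50 passed edgeR's test, with 4 at an unadjusted p under 0.05, and DESeq2 called 1 higher and 1 lower of 52. Of 19 genes for mitochondrial transcription and RNA processing, 6 were higher and 4 lower in total RNA, beside 18.4% and 19.4% of all features tested. In new RNA 0 passed edgeR's test, with 2 at an unadjusted p under 0.05, and DESeq2 called 1 higher. POLG, the mitochondrial DNA polymerase, had 129.6, 127 and 122 against 57.8, 70.7 and 67.6 CPM of all reads (log2 -0.94 ± 0.07), and TFAM, which packs mitochondrial DNA and starts its transcription, 105, 95.9 and 94.9 against 73.3, 81.6 and 78.6 (log2 -0.34 ± 0.07).

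Of the 24 genes with the largest changes in total RNA, all kept their call in every alternative run. The largest rise was in SCARNA2, a small RNA of Cajal bodies, with 22, 18 and 16 reads in the control and 1075, 1344 and 1150 reads in the ETO libraries (log2 6.11 ± 0.16). None of its 3569 reads in the ETO libraries was converted, which allows a share of up to 0.0841%. RN7SK, the small RNA that holds the elongation factor P-TEFb inactive, had 3.41, 2.35 and 2.46 against 60.7, 49 and 50.4 CPM (log2 4.29 ± 0.13, 33% multimapped) and no converted read among 4911 in the ETO libraries, which allows up to 0.0611%. RNU4ATAC, a small RNA of the minor spliceosome, had 12.9, 18.6 and 14.9 against 93.2, 82.8 and 76.3 CPM (log2 2.44 ± 0.11). Such RNAs carry no poly(A) tail as a rule, so their reads in a library of polyadenylated RNA need not follow their amount. DUSP8, a phosphatase of MAP kinases, had 2.8, 4.38 and 3.09 against 22.4, 22.5 and 20 CPM (log2 2.66 ± 0.12), with 99.7% of its reads multimapped. SENP3, a SUMO protease, had 5.66, 4.72 and 5.25 against 32.9, 17.8 and 14.8 CPM (log2 2.05 ± 0.22).

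Other large falls were in FA2H, a fatty acid hydroxylase, with 157, 141 and 209.7 against 33.9, 33.1 and 19.5 converted CPM and 102, 104 and 99.8 against 23.8, 29.3 and 25.4 CPM of all reads (log2 -2.54 ± 0.44 and -1.96 ± 0.10). CHI3L2, a secreted chitinase-like protein, had 278, 267 and 269 against 109, 124 and 64.5 converted CPM and 882, 989 and 974 against 338, 325 and 319 CPM of all reads (log2 -1.44 ± 0.28 and -1.54 ± 0.05). PTMS, parathymosin, had 37.3, 41.3 and 42.9 against 9.88, 11.1 and 10.6 CPM of all reads (log2 -1.94 ± 0.11). ARRDC3, an arrestin-like adaptor, was higher in new RNA at 70.3, 64.5 and 43.7 against 211, 252 and 282 converted CPM (log2 2.07 ± 0.24). PABPC1, the poly(A) binding protein, had 349.9, 291 and 323 against 527, 571 and 3073 converted CPM, where the third ETO library stood far above the rest. LOC124904634, a RefSeq locus with no gene name, had 4.69, 3.12 and 3.28 against 34.1, 31 and 28.5 CPM of all reads (log2 3.08 ± 0.13). Of the 24 genes with the largest changes in new RNA, 9 (ACD, ANKZF1, BCYRN1, CCNB1, LOC124900469, MYL6B, NRF1, SQLE and ZNF709) lost the call without 1 library, with highest adjusted p from 0.053 to 0.46. The ratio named 16, of which 12 (ACD, ACTG1, ADI1, ANKZF1, DENR, DNPH1, HMGN2, JUN, MYL6B, PDK1, SNHG4 and TOX2) lost it, from 0.054 to 0.43. Of these, ADI1, BCYRN1 and HMGN2 had over 99% of their reads multimapped.

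Further lists were interferon response, with 12 higher and 1 (IFIT1) lower of 28 in total RNA (median log2 0.40), among them B2M, the light chain of HLA class I, at 525, 509 and 643 against 791, 731 and 765 CPM, 98.4% multimapped. Of 34 ribosome biogenesis genes 15 were higher and 6 lower in total RNA and 2 higher in new RNA; PES1, a factor of the large subunit, had 57.1, 65.4 and 62.1 against 91.7, 81.2 and 83 CPM of all reads (log2 0.47 ± 0.08). Splicing regulators gave 5 higher and 10 lower of 23 in total RNA (8 and 8 without TMM scaling) and 4 higher and 1 lower in new RNA. SRSF3, a splicing factor of the SR family, was lower in new RNA at 1221, 1417 and 1214 against 826, 857 and 747 converted CPM (log2 -0.66 ± 0.12, 29.8% multimapped), and HNRNPH1 higher at 741, 780.3 and 777 against 1237, 1323 and 1216 (log2 0.72 ± 0.11), 94.2% multimapped. Heat shock genes gave 4 higher and 5 lower of 14, and histone genes 3 higher and 5 lower of 15, in total RNA. Over all features tested 18.4% were higher and 19.4% lower in total RNA. No member of the interferon (10 tested), heat shock (14) or histone (8) lists passed edgeR's test in new RNA. At an unadjusted p under 0.05 there were 3, 4 and 5, and DESeq2 called 1 higher of 26, 1 higher of 15 and 0 of 13.

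**Figure D5:**
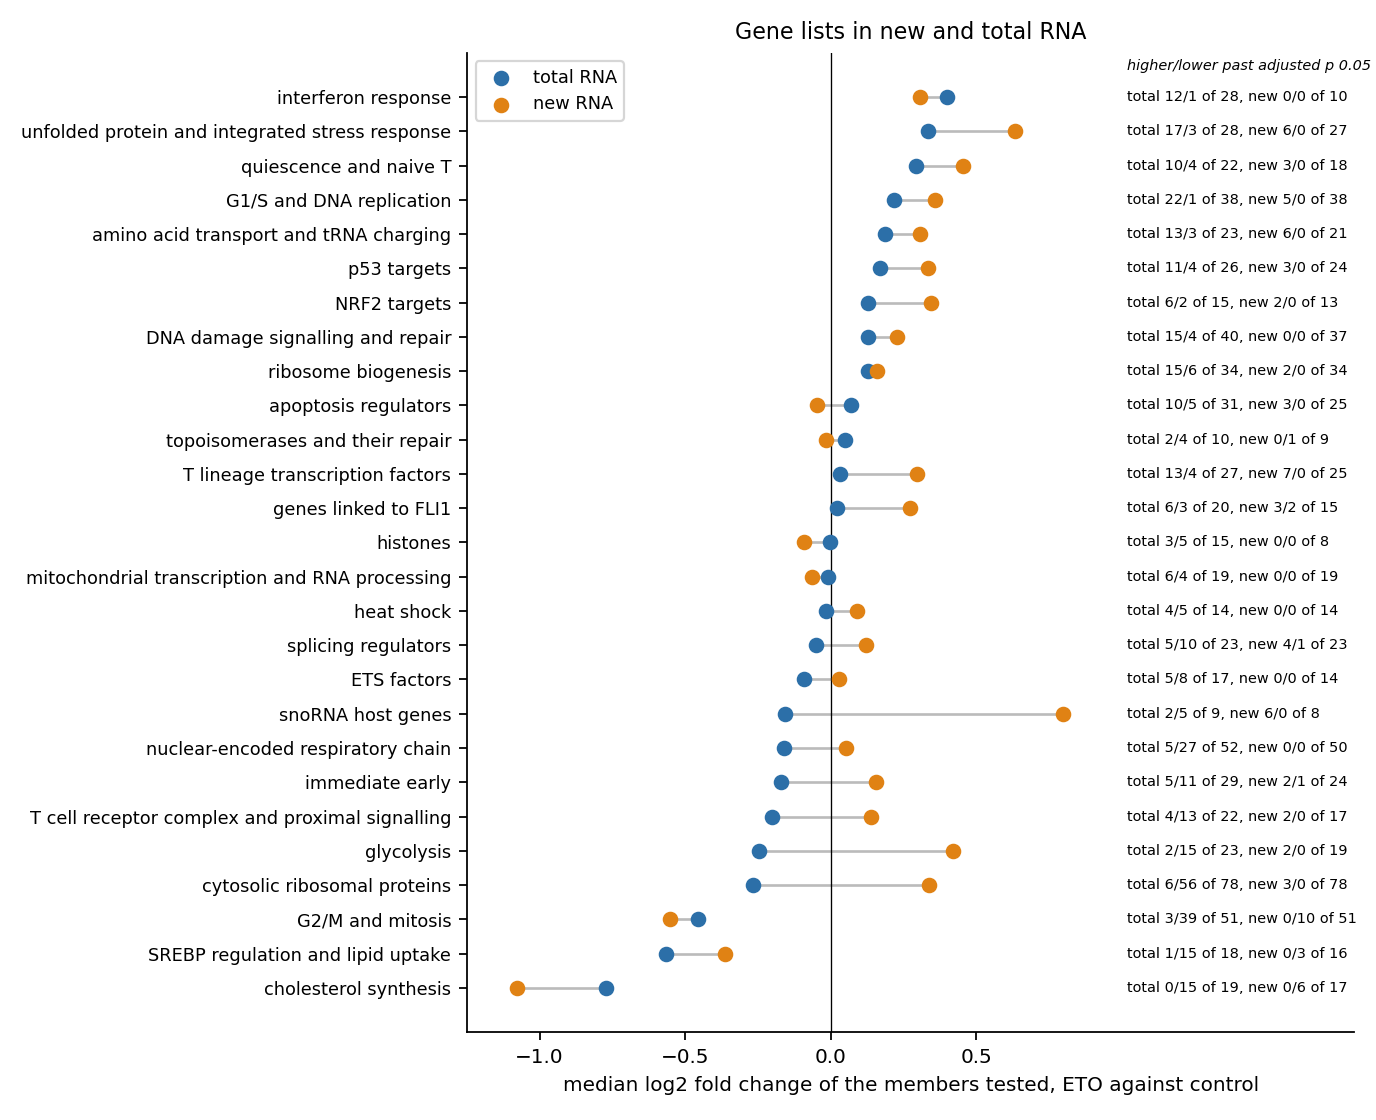
Median log2 fold change (ETO against control) of the tested members of 27 gene lists in total and new RNA, with counts of members higher and lower past adjusted p 0.05 at the right. Sterol and G2/M lists are below 0 in both measures, stress lists above 0, and hosts of small nucleolar RNAs, glycolysis and ribosomal proteins above 0 in new and below 0 in total RNA.

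Changes also differed with gene length and with the converted share in the control libraries. The median log2 change of new RNA was 0.18 for 1733 genes spanning under 10 kb, 0.05 for 2565 of 10 to 30 kb, -0.07 for 2993 of 30 to 100 kb and -0.10 for 1256 of 100 to 300 kb. For the 191 genes over 300 kb it was 0.05. In total RNA the medians lay within 0.03 of 0 up to 300 kb, and that of genes over 300 kb was 0.10. Genes were split into 4 groups of equal size by their converted share in the control libraries. The group with the highest share (5.13% to 28.7% converted) gave 13.7% higher and 30.0% lower in total RNA. The group with the lowest (0.0567% to 1.58%) gave 28.9% and 28.9%. This share was not corrected for T content or for conversions without labelling, and the groups were not matched for read depth. These are descriptions across genes, which are not independent replicates.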

How the data were processed

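The authors' deposited tables give, for each 3' UTR line, the count of all reads and the count of converted reads, beside conversions and T positions covered. Per the file headers they were made with slamdunk 0.4.3 and GENCODE V33 3' UTRs, and per the submitters' processing notes on GRCh38. Per the labels' protocols RNA was treated with 10 mM iodoacetamide for 15 min at 50 °C and made into 3' libraries. How many conversions make a converted read is not given in the sources used here. Of 13496 lines with 1 such read 78.2% held 2 or more conversions. No molecular identifiers are named in the labels, and the limits given for a count of 0 (3 counts) cover counting error alone. Per the file headers the control, ETO and CPT tables hold samples numbered 0 to 2, 6 to 8 and 0 to 2 of their runs of slamdunk. These numbers do not name a sequencing batch, and none was found in the sources used here.

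Of each group of overlapping lines on a strand the line with most reads was kept (122255 lines, 68330 groups), and 43736 groups were named by RefSeq genes of GRCh38.p14 that hold or end within 1000 bp of them, with 97.5% of reads outside the mitochondrial genome. The mitochondrial genome stayed out of the gene tests. Counts were fitted with edgeR 4.0.16 (filterByExpr, TMM, quasi-likelihood, Benjamini-Hochberg, R 4.3.3), all 9 Jurkat libraries in 1 fit, and for the converted-to-other ratio with a term per library. Standard errors are the log2 change over the square root of F. CPM uses TMM library sizes, and converted CPM is per 1000000 converted reads. Alternatives were DESeq2 1.42.0, other filters and scalings, a replicate block, the 6 libraries alone and each library left out.

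Genes named are the 12 largest rises and falls of new and of total RNA (8 of the ratio) among those past adjusted p 0.05, with at least 20 CPM in the higher group (20 CPM of all reads in both groups for the ratio). For new and total RNA the groups also may not overlap, so for genes named as largest changes the lack of overlap follows from the choice. Up to 4 members of each of 27 lists with the smallest p, and a fixed set with FLI1 and the topoisomerases, were added. Some genes that this rule names are not reported here. Genes given with a tested change of new RNA or of the ratio were mostly taken from those that kept the call in every alternative; exceptions are stated. Members and lists were chosen with earlier results of these data known. The start-site search and the groups by length and by converted share were added after the results were seen.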

Additional observations from a re-analysis of the deposited data

How the results depend on the processing

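Total RNA gave 4504 to 6380 calls over all alternatives, within 1.5 times the 5666 reported, and 4504 to 4863 when any 1 library was left out. New RNA gave 177 calls as reported, 492 with DESeq2 and 889 when the 6 libraries were fitted alone. It gave 90 to 116 when any 1 library was left out, of which 89 to 112 were among the 177, with fewer samples in the fit. The ratio gave 62 calls as reported, 334 with the 6 libraries alone, 145 without the filter on low counts, 40 with library sizes from all reads, and 20 to 24 when any 1 library was left out. The replicate block, with the library number as a term, gave 144 calls in new RNA and 5378 in total RNA. Libraries of the same number did not deviate together (correlations of their deviations from -0.03 to 0.02). Deviations within 3 libraries per group cannot settle whether the numbers pair the samples. No paired analysis was run for the ratio, whose fit holds a term per library. With same-numbered libraries paired, added after seeing the data, the mean ratio was 1.175 for the conversion rate, 2.61 for the mitochondrial share and 1.80 for the mitochondrial conversion rate, each at p = 0.25 (exact sign-flip test, two-sided), the smallest p that 3 pairs allow. The ratio of ETO to control was 1.166 to 1.188 for the conversion rate, 2.496 to 2.715 for the mitochondrial share and 1.761 to 1.863 for the mitochondrial conversion rate when any 1 library was left out. Of 1759 values of genes named in the text under an alternative, 1584 kept their direction and side of the threshold, 171 lost the call with the same direction and 3 newly passed it. For MDM2 total RNA turned from -0.04 to a log2 change of 0.028 without TMM scaling, neither past the threshold. Converted reads numbered 530788 to 879423 per library against 24021586 to 39602287 reads in all, and the part of this depth in the lower count of calls in new RNA was not tested.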
